A study of Homo sapiens with 4 samples.

Results

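The genes described here carried at least 2 peaks of N6-methyladenosine (m6A) in the list from cells with ALKBH5 knocked down and no peak in the list from control cells. They were chosen by the peak lists themselves, by counting the rows that bear each Ensembl gene identifier, and 178 genes with 388 peaks met the rule among 12792 genes with a peak in either list. The cells were RPMI-8226, an established human multiple myeloma line, transduced with lentivirus carrying either shNC, the control hairpin, or shALKBH5, a hairpin against ALKBH5. Poly(A) RNA of each condition gave 1 input library and 1 library immunoprecipitated (IP) with an antibody against m6A, so there were 4 libraries and 1 peak list per condition. The control cells also carried a lentiviral hairpin, so the conditions share transduction and differ in the hairpin. With no replicate, nothing was tested between conditions, and every value of a single peak has no replicate error.

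m6A is placed on messenger RNA in the nucleus by a methyltransferase complex built around METTL3 and METTL14, most often in long internal exons and around stop codons. It can be removed by the demethylases ALKBH5 and FTO and is read by proteins such as the YTHDF and YTHDC families, which affect splicing, export, translation and decay of the transcript. ALKBH5 is a nuclear enzyme that acts on m6A of messenger RNA. At the very first transcribed base, a related mark, m6Am, is recognised by many anti-m6A antibodies too, so that a peak at a gene start can hold either mark, and the lists do not tell them apart.

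Each peak carries a fold enrichment of IP over input and a log10 p, both of them the authors' own values from the deposited tables, where a more negative log10 p marks a stronger peak. A gene without a peak in a list has no value there, so absence from the shNC list does not give the level of m6A in the control cells. Read counts were not analysed here and depth is unknown. ALKBH5 itself had 3 peaks in each list, with folds of 1.57 to 5.71 in shALKBH5 and 1.35 to 5.98 in shNC, which measures enrichment and not the amount of its RNA. Of 12 plasma cell and myeloma markers, 9 had a peak in both lists, among them SDC1, IRF4, PRDM1, XBP1 and CD38. Of 5 markers each, T and NK cells had 1 with an shALKBH5 peak and 0 with an shNC peak, myeloid cells 2 and 1, and stromal cells 1 and 2. One of the myeloid markers, MPEG1, is among the 178 genes.

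The 178 genes made up 2.81% of the 6332 genes with 2 or more shALKBH5 peaks, a share that the rule itself sets and from which nothing is read. In the opposite direction, 43 genes with 87 peaks had 2 or more shNC peaks and no shALKBH5 peak. The lists differ in length, with 24626 shALKBH5 and 22448 shNC peaks, and the order of these counts depended on how the lists were cut. When the shALKBH5 list was shortened to its 22448 strongest peaks by p, 76 genes met the rule and 88 met the opposite one. That cut removes peaks from the shALKBH5 list only, so the first count can only fall and the second can only rise. When both lists were held to a log10 p of -5 or stronger, the counts were 100 and 32, and 38 of those 100 were among the 178.

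Most of the 178 genes sat at the minimum the rule allows. There were 153 genes with 2 peaks, 20 with 3, 3 with 4 and 2 with 5. The opposite set had 42 genes with 2 peaks and 1, DOCK10, with 3. Just outside the rule on one side lay 1296 genes with a single shALKBH5 peak and no shNC peak, whose weakest log10 p was -2.04 and among which PSMB4, a proteasome subunit, had -184. The strongest peak of the 2-peak genes ran from -54.7 to -2.28, so genes with a far stronger single peak stood outside the set. On the other side lay 1099 genes with 2 or more shALKBH5 peaks and exactly 1 shNC peak. ABAT, LYRM4 and FBXL22 each had 5 shALKBH5 peaks and were kept out by 1 shNC peak with a log10 p of -3.5, -3.64 and -4.52. DHRS4-AS1 and ELMO1 also had 5, and their 1 shNC peak was strong, at -81.6 and -252.

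The peaks of the 178 genes were weak by p and high by fold beside the rest of the list. Their median log10 p was -4.11 and their median fold 9.05, against -15.3 and 6.64 over all shALKBH5 peaks. Genes with 2 or more shALKBH5 peaks that also had an shNC peak showed a median of -16.65 and a fold of 6.33, and the single-peak knockdown-only genes -4.115 and 7.69. The control-only genes with several peaks had a median of -3.78 and 5.65. A log10 p below -10 was reached by 29 of the 388 peaks (7.47%, exact 95% binomial interval 5.06 to 10.6%), while 59.3% of all shALKBH5 peaks reached it. Since the rule keeps genes that missed the control list altogether, these levels are a description of what it selects. The intervals here and below cover counting error only, and peaks of 1 gene are not independent of each other.

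Within each gene the peaks were ranked by p, so the second is no stronger than the first by construction. The median over genes was -5.40 for the strongest peak and -3.35 for the second. Genes with several shALKBH5 peaks and an shNC peak had -63.7 and -14.0, and the control-only genes with several peaks -4.75 and -3.31. At least 1 peak below -10 was present in 25 genes, and only 4 of the 178, BST2, MCM6, PHF19 and UXT-AS1, had 2 of them. Peaks of -5 or stronger came at least in pairs in 38 genes (21.3%), and 79 genes (44.4%) had no peak stronger than -5.

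**Figure D1:**
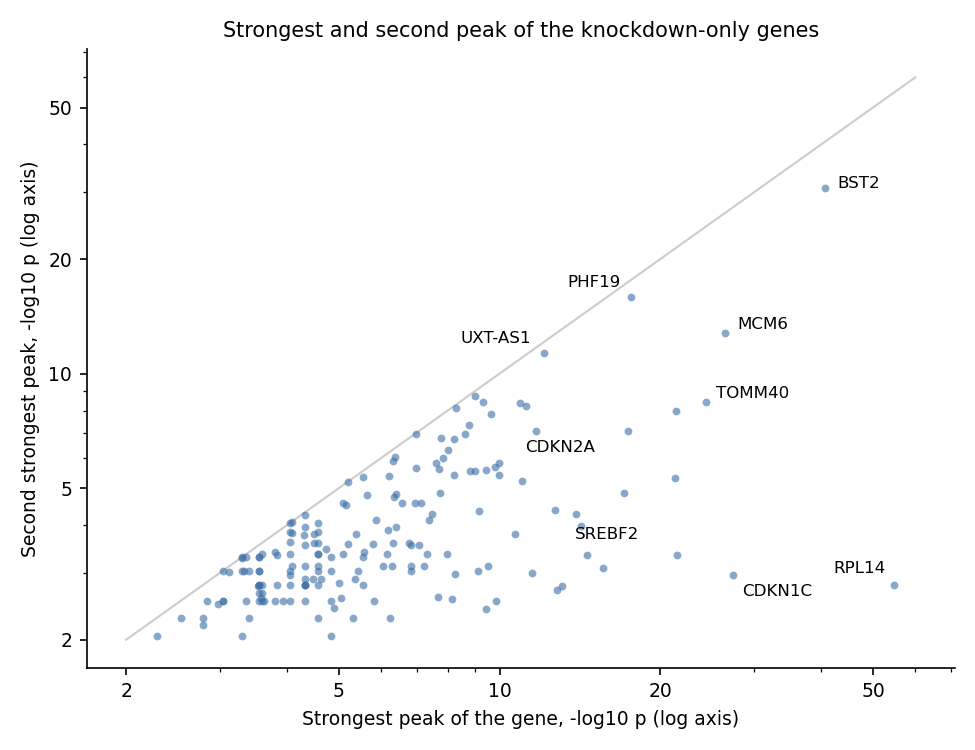
Strongest peak (x axis) and second strongest peak (y axis) of each of the 178 genes as -log10 p, on log axes, with 1 point per gene and a grey line where both are equal. BST2, PHF19 and UXT-AS1 lie near the line, while RPL14 and CDKN1C pair 1 strong peak with a weak one.

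Peak strength also took repeated values. A fold and log10 p pair that stood in 20 or more peaks of the whole shALKBH5 list was carried by 164 of the 388 peaks (42.3%, interval 37.3 to 47.4%), against 9.78% of all peaks and 7.56% of peaks in genes with several peaks and an shNC peak. Single-peak knockdown-only genes had 37.8% and the control-only genes 34.5%. The commonest pair, a fold of 12.7 with a log10 p of -3.03, stood in 165 peaks of the list, 19 of them in the 178 genes. All peaks were of this repeated kind in 48 genes, NR3C2, LINC01268, GRIN2A and ZNF214 among them. The largest p in the list was 0.00955. By log10 p, repeated pairs of the members reached from 9.05 with -2.04, as in ADAMTS13, to 29.9 with -8.01 in MPEG1.

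**Figure D2:**
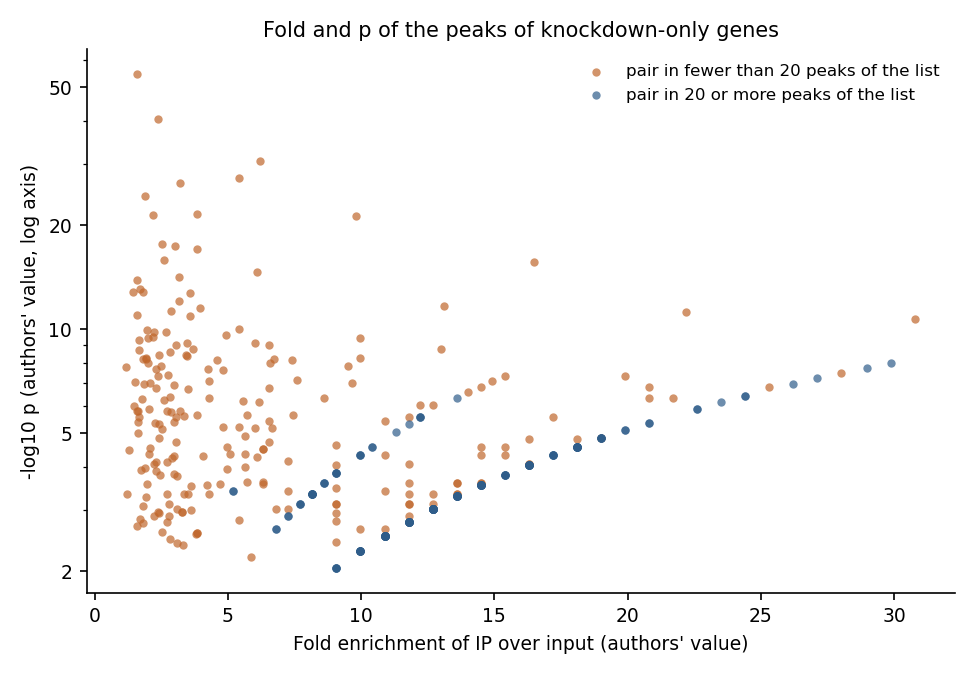
Fold enrichment (x axis) and -log10 p (y axis, log scale) of the 388 peaks, with pairs found in 20 or more peaks of the whole list in blue and the others in orange. The blue points, 164 in all, line up along curves at the lower edge, and the peaks past 20 on the y axis have folds of 9.79 or less.

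Cell cycle genes held several of the strongest peaks. The grouping by function used here was made by hand from gene symbols after the members and their values were known, covers 111 of the 178 genes, and serves only to order the description. Of 7 genes in this group, 4 had a peak below -10, 5 had a peak at the gene start, and the median strongest log10 p was -11.7, against -5.40 over all 178. These are counts in 1 pair of lists, and the group was not tested against others.

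CDKN2A, which encodes the cell cycle inhibitors p16INK4a and p14ARF from alternative first exons, had 5 peaks on chromosome 9 (hg38, minus strand). In the direction of transcription, they lay at 21995211 to 21995301 with a fold of 5.66 and log10 p of -4.36, at 21994568 to 21995062 with 4.3 and -6.34, and at 21994418 to 21994508 with 13.1 and -11.7. The remaining peaks lay further along, at 21989646 to 21989855 with 14.9 and -7.08, and at 21974689 to 21974898 with 16.3 and -4.81. The first 3 fall at and just after the RefSeq start of the gene, the fourth inside it and the last over the start of the second RefSeq promoter entry, so the peaks fall into separate places and not 1 broad region. CDKN2B-AS1, an antisense RNA gene across this locus, had a peak of its own sharing bases with the second of these (3.34, -6.5).

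CDKN1C, which encodes p57, another cyclin-dependent kinase inhibitor, had a peak inside the gene with a fold of 5.4 and log10 p of -27.4 and a weak one at its start (2.43, -2.95). CCNE1, which encodes cyclin E1, a driver of entry into S phase, had 1 peak at its start (6.15, -6.18) and 1 at its end (2.3, -3.89). MCM6, a subunit of the replicative helicase, had its stronger peak at the start, on chromosome 2 at 135876307 to 135876426 (3.22, -26.4), and a weaker one inside the gene (1.43, -12.8). Of these 3 genes, MCM6 alone had both peaks below -10. Among the mitosis and centrosome genes, ODF2 had one strong and one weak peak (9.79, -21.3 and 2.43, -5.32). TEDC2, a tubulin partner at centrioles, had peaks of near equal strength (1.93, -8.28 and 7.39, -8.13). MAD1L1, a spindle checkpoint component, had 3 peaks whose log10 p ran from -7.62 to -2.96, each split over spliced blocks.

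Immune and lysosomal genes included the pair of peaks with the strongest second p of all. BST2, the surface protein tetherin that is expressed on plasma cells and holds budding viruses at the membrane, had a peak at its start, chromosome 19 at 17405501 to 17405648 (2.37, -40.6), and one at its end, at 17402939 to 17403027 (6.2, -30.7). No shNC peak of any gene lay within 16907 bases of either. The group had 11 genes with 28 peaks, of which 7 genes had a start peak and 2 had a peak below -10.

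MPEG1, which encodes perforin-2, a pore-forming protein of macrophages and other immune cells, had 5 peaks within one small stretch of chromosome 11 (minus strand). From its start to its end the folds were 10.9, 21.7, 16.3, 4.98 and 29.9, and the log10 p values -4.32, -6.31, -4.06, -4.57 and -8.01. The last of these, at 59210090 to 59210626, was the widest and the strongest. CTSD, the lysosomal protease cathepsin D, had a spliced peak at the start (3.69, -8.78) and one at the end (2.39, -7.35). TAPBPL, a relative of tapasin that edits peptides on MHC class I, had a start peak (4.94, -9.63) and one inside the gene (2.5, -7.85). CTSD and TAPBPL thus each had 2 peaks of similar log10 p, while those of BST2 lay further apart.

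GAB3, a docking adaptor downstream of receptors of blood cells, had 4 peaks with log10 p from -4.06 to -3.03, and 3 of them lay close together. CD48, a surface ligand of lymphocytes and also an antibody target tried in myeloma, had 2 weak peaks (2.96, -5.38 and 2.44, -3.8). CCR6, the receptor for the chemokine CCL20, had peaks of 19 with -4.84 and 12.7 with -3.03, and each shared bases with a peak of the unnamed locus Z94721.2, which is itself one of the 178 genes. The peaks of that locus read 19 with -4.84 and 13.6 with -3.29, so this stretch of chromosome 6 counts under 2 of the 178 genes. IL4I1, an amino acid oxidase secreted by antigen-presenting cells, had a start peak (1.97, -9.97) and an end peak (10.9, -5.42). PILRA, an inhibitory receptor of myeloid cells, had a strong peak inside the gene (16.5, -15.6) and a weak start peak (1.81, -3.08). That start peak is spliced, with its 5' edge at -3761 bases from the RefSeq start. LRRC25 and ADORA3 completed the group with no peak stronger than -4.06.

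RNA and translation genes had a median strongest log10 p of -9.63 over 8 genes, 3 of them with a peak below -10. RPL14, a protein of the large ribosomal subunit, held the strongest peak of all 388 at -54.7, but with a fold of 1.58, and its other peak was weak (11.8, -2.78). RPL14 has processed pseudogene copies, so the assignment of its reads is uncertain. EIF4G2, a translation initiation factor that works without binding the cap-binding protein, had both peaks at its start (1.59, -13.9 and 2.96, -4.29). PIH1D1, which links clients to a chaperone complex used in assembling RNA polymerases and small nucleolar particles, had a start peak of 3.17 with -14.2. CMTR1, which methylates the ribose of the first transcribed nucleotide, had peaks of 1.93 with -8.22 and 3.52 with -6.73. LSM14A, a component of P-bodies, had a start peak of 2.02 with -5.87 and one inside the gene of 2.29 with -4.13.

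Transcription and chromatin genes numbered 18, of which 4 had a peak below -10 and 7 had a start peak. PHF19, a subunit of the repressive complex PRC2 that reads methylated histone H3, had peaks of 2.51 with -17.6 and 2.61 with -15.9, and the second is split over spliced blocks. NR2C1, an orphan nuclear receptor, had one strong and one weak peak (3.85, -17.1 and 2.43, -4.85). SREBF2, the master regulator of cholesterol synthesis genes, had a spliced start peak (6.11, -14.6) beside a weak one just downstream (1.23, -3.33). The first shared bases with a peak of SREBF2-AS1 on the opposite strand (5.01, -15.1), so its strand of origin cannot be told. USF2, a basic helix-loop-helix factor binding E-boxes, had peaks of 3.57 with -12.7 and 2.02 with -4.37. ATF3, a stress-induced transcription factor, stayed weak at 5.43 with -5.21 and 4.71 with -3.57.

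Other regulators of transcription in the set had no peak below -10. In the transcription and chromatin group, NR3C2, FOXE3, POU2F2, PLAGL1, HIST1H2BN, ZNF214 and ZNF474 had repeated values only. NR3C2, the mineralocorticoid receptor, had 16.3 with -4.06 at both of its peaks, one of the commonest pairs of the list. FOXE3, a lens forkhead factor, had 14.5 with -3.54 and 10.9 with -2.53, and POU2F2, the B-cell factor OCT2, had 12.7 with -3.03 and 10.9 with -2.53. KDM4C, a histone H3 demethylase, had 8.6 with -3.59 and 9.05 with -2.79, which lay 356190 bases from first to last base. Of 4 zinc finger genes, ZNF793 and ZNF582 had one peak each past -5 (-6.82 and -6.35), and ZNF214 and ZNF474 none. HIST1H2BN, a histone H2B gene with near-identical copies, had 3 weak peaks of -4.57, -3.59 and -2.65 whose assignment is uncertain.

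Signalling and apoptosis was the largest of the groups with 19 genes and 43 peaks. PPP6R1, a regulatory subunit of protein phosphatase 6, had a start peak of 2.2 with -21.4 and a second one of 2 with -7.99. ULK3, a kinase of the autophagy kinase family, had 3.02 with -17.4 and 1.5 with -7.06. In both genes the strongest peak had a fold of 3.02 or less.

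WNT5A, a secreted ligand of non-canonical Wnt signalling, had 3 peaks of high fold and moderate p (22.6 with -5.89, 20.8 with -6.31 and 22.6 with -5.89). The last pair of these along the gene shared bases, so the gene had 2 separate sites, and the nearest shNC peak of any gene lay 1089059 bases away. PLCH2, a phospholipase C, had 3 peaks close together near its end (19 with -4.86, 29 with -7.74 and 16.3 with -4.06). HPCAL1, a neuronal calcium sensor, had folds of 18.1, 9.5 and 1.49 with log10 p of -4.57, -7.83 and -6.01, and SRPK3, a kinase of SR splicing factors in muscle, had 12.7, 15.4 and 8.14 with -3.03, -7.33 and -3.35. PIDD1, a scaffold of the caspase-2 complex, had 3.94 with -11.5 and 3.62 with -3, and CRADD, its partner in that complex, had 13.6 with -3.29 and 1.94 with -3.27. BCL2A1, an anti-apoptotic BCL2 relative, had both of its weak peaks at the start (14.5 with -3.54 and 10.9 with -2.65). RASSF6, a member of a Ras-association family, had 19.9 with -5.1 and 14.5 with -4.57.

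Mitochondrial and metabolic genes numbered 17, of which TOMM40 and GSS had a peak below -10. TOMM40, the channel of the outer-membrane import complex, had its stronger peak at the end (1.89, -24.3) and a second at the start (2.42, -8.42). GSS, glutathione synthetase, had both peaks near its end (3.57, -10.9 and 3.47, -8.36). NADK, which makes NADP from NAD, had 3 peaks of 1.67 with -9.33, 19.9 with -7.33 and 3.41 with -8.43, all past -5. SDHA, the flavoprotein of succinate dehydrogenase, had 1.62 with -5.01 at its start and 5.43 with -2.81 inside, and is uncertain because of its pseudogene copies. NDUFA10 of complex I, ATP5MF of the ATP synthase and the cholesterol exporter ABCG1 had strongest peaks of -5.06, -3.93 and -2.97.

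Ubiquitin, chaperone and protein turnover genes numbered 13, with a median strongest log10 p of -5.82. KCMF1, a ubiquitin ligase, had a start peak of 3.85 with -21.5 and a weak one inside (2.71, -3.33). AUP1, a lipid droplet protein of the endoplasmic reticulum degradation pathway, had 1.58 with -11 at its end and 4.83 with -5.22 upstream of its start. TRIM45, a tripartite motif ligase, had 3 peaks of high fold (24.4 with -6.41, 19 with -4.84 and 12.7 with -3.03). DCAF8L2, a substrate receptor relative encoded on chromosome X, had 4 peaks that merged into 2 sites (12.7 with -3.03 and 11.8 with -2.78 at the first, 16.3 with -4.08 for both at the second). KLHL29 and KLHL10, kelch adaptors of ubiquitin ligases, had strongest peaks of -5.56 and -4.32.

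Adhesion, cytoskeleton and channel genes were mostly weak. Among 12 adhesion, cytoskeleton and matrix genes the median strongest log10 p was -4.52, and ARPC1B, a subunit of the actin-nucleating ARP2/3 complex, alone passed -10 (1.83, -12.8). TPM4, a tropomyosin of non-muscle actin filaments, had 2 peaks of similar p (3.04, -9 and 1.66, -8.71). PCDHGB5, a clustered protocadherin, had 4 peaks within 1 stretch of chromosome 5, with folds of 17.2, 14, 11.8 and 18.1 and log10 p of -4.32, -6.57, -2.78 and -4.57. PCDHB5, a clustered protocadherin of the beta group, had 14.5 with -3.54 and 13.6 with -3.29. Clustered protocadherins are close copies of each other, so read assignment among them is uncertain. Of 6 channel, transport and endocytosis genes, STON2, an endocytic adaptor, reached 30.8 with -10.7 beside 15.4 with -3.8, and AP2A1, a subunit of the AP-2 clathrin adaptor, had 2 overlapping peaks (1.81, -8.2 and 1.61, -5.4). The channel genes KCNS3 and GRIN2A had strongest peaks of -4.84 and -2.53.

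**Figure D3:**
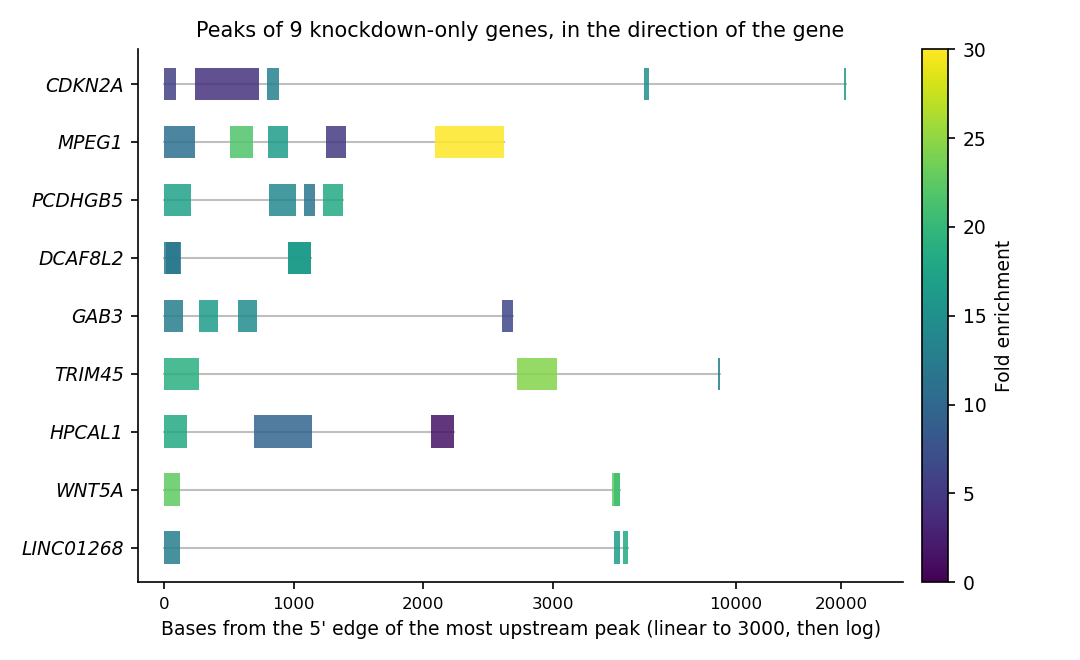
Peaks of 9 genes along the gene, in the direction of transcription, as bars from the 5' edge of the most upstream peak (x axis in bases, linear to 3000 and then log), coloured by fold. CDKN2A has 3 peaks close together and 2 far downstream, MPEG1 and PCDHGB5 have theirs in 1 stretch, and the paired peaks of DCAF8L2 and WNT5A overlap.

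Noncoding and unnamed genes took a larger share of the 178 genes than of all genes with several peaks. Unnamed clone loci and pseudogenes, taken by symbol pattern, were 29 of the 178 (16.3%) against 5.75% of the 6332 genes with 2 or more shALKBH5 peaks. Long noncoding and antisense genes were 12 (6.74%) against 3.43%. The 29 all have symbols that begin with AC, AL or AP. The pattern missed the pseudogenes AMD1P4, NUDT16P1, FAM183BP and MICD and the clone loci Z93930.2, BX322234.1 and Z94721.2. By RefSeq type, 129 of the 178 (72.5%, interval 65.3 to 78.9%) were protein coding, and 32 (18%) had no RefSeq match by symbol. Of genes with several shALKBH5 peaks and an shNC peak, 88% were protein coding and 5.85% had no match. The control-only genes with several peaks held such genes too, among them AC136475.7, AL592293.2, AC011632.1, KLF2P3, OR7E47P and BTG3-AS1. These classes were not counted there or in the single-peak knockdown-only genes, so the larger share is not shown to be particular to the 178.

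The symbol classes drawn up for the coding genes were small. C2H2 zinc finger genes were 4 (2.25% against 6.51%), ubiquitin and proteasome genes 4 (2.25% against 3.46%), cell adhesion and matrix genes 4 (2.25% against 0.932%), and ribosomal and mitochondrial protein genes 5 (2.81% against 1.25%). Kinases and phosphatases, chromatin genes and G protein-coupled receptors had 3 each (1.69%, against 2.78%, 1.53% and 0.726%). Developmental transcription factors, ion channels, transporters, cytokine genes and RNA-binding genes had 2 each (1.12%, against 0.900%, 0.632%, 2.12%, 1.23% and 2.54%), and small GTPase genes 1 (0.562% against 1.97%). No member fell among the 115 cytoskeleton and cilia genes or the 2 immunoglobulin and MHC genes of the patterns. The patterns read names only: they place the ATP synthase subunit ATP5MF among transporters and the oxidase IL4I1 among cytokines. They miss the kinases PKN3, SRPK3 and ALPK2 and the cytoskeleton genes ARPC1B and TPM4.

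One noncoding gene, UXT-AS1, antisense to the prefoldin-like gene UXT, had 2 peaks below -10 (2.88, -11.3 and 3.15, -12.1). They shared bases with each other and with a peak of UXT on the opposite strand (4.67, -12.2). SRP14-AS1, antisense to a signal recognition particle gene, had 22.2 with -11.2, 6.72 with -8.21 and 15.4 with -3.8. ST3GAL5-AS1 had 12.7 with -6.06 and 12.7 with -3.12, both at its start, and LINC01268 had 3 weak peaks (18.1, 16.3 and 12.7, with -4.57, -4.06 and -3.03). The strongest unnamed loci were AC007686.3 (2.18, -9.51), AL592295.4 (13, -8.79), AC015813.5 (28, -7.48) and AC027020.1 (27.1, -7.21).

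Along the gene, the peaks were placed by the RefSeq span. Start peaks had their 5' edge before the RefSeq start or within the first 500 bases, end peaks reached into the last 1000 bases without being start peaks, and all others counted as inside. Of 309 placed peaks in 144 genes, 58 were at the start (18.8%, interval 14.6 to 23.6%), 175 inside (56.6%, 50.9 to 62.2%) and 76 at the end (24.6%, 19.9 to 29.8%). Over all placed shALKBH5 peaks, 14.5% were at the start. Single-peak knockdown-only genes had 32.5% at the start (interval 29.5 to 35.6%), above the interval of the 178 genes, and genes with several peaks and an shNC peak had 12.9% (12.4 to 13.4%), below it. The control-only genes had 10 of 76 (13.2%, 6.49 to 22.9%), an interval that overlaps that of the 178 genes.

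**Figure D4:**
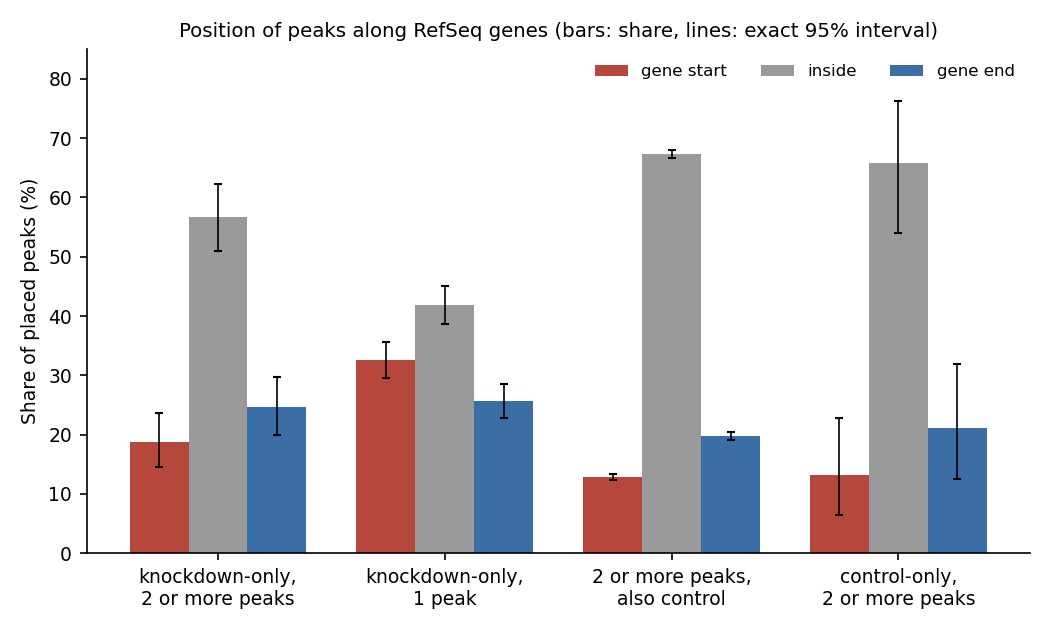
Share of placed peaks (y axis, percent) at the gene start, inside and at the gene end in 4 sets of genes, with exact 95% binomial intervals as lines. The 178 knockdown-only genes with 2 or more peaks, at 18.8% start peaks, lie between the single-peak knockdown-only genes and the genes that also have a control peak.

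A start peak was present in 51 of the 178 genes, at a median of 32 bases from the RefSeq start. Start peaks had a lower fold than the others, with a median of 4.075 against 9.65 inside and 6.33 at the end, while their median log10 p was alike (-4.465, -4.32 and -4.48). Repeated fold and p pairs made up 24.1% of the start peaks, 41.7% of those inside and 39.5% of those at the end. Of the 29 peaks below -10, 9 lay at the start, in genes such as BST2, MCM6, KCMF1, PPP6R1, SREBF2, PIH1D1 and EIF4G2. Both a start and an end peak were found in 16 genes, among them BST2, TOMM40, CTSD, CCNE1, ATAD3A, PYCR1, MED15 and CTNNA1. In 7 genes, EIF4G2, UXT-AS1, CDKN2A, CHKB-CPT1B, ST3GAL5-AS1, BCL2A1 and MIPEP, at least 2 peaks lay at the start.

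At the gene starts, promoter windows from RefSeq (build GRCh38.p14, 250 bases before to 50 after each start) matched 110 of the 178 genes and were searched for GGAC, the core of the best-known m6A consensus, on the gene strand only. Of 34 peaks that covered part of a window in 33 genes, by a median of 57 bases, 7 (20.6%) had GGAC in the covered bases. Over all 35116 windows, 66.3% held GGAC somewhere in 300 bases and 18.9% in the 50 bases from the start. Of the 37 members with a start peak and a window, 5 (13.5%) held it in those 50 bases. Sites of 5 of these genes are shown as examples of sequence under a peak, chosen after they were found. A further 2 sites of AUP1, 1 of GLRX and 2 of HIST1H2BN are not printed. Each runs 5′ to 3′ on the gene strand with GGAC in capitals.
PHF19 (chr9:120877176-120877205, minus strand): cggccccacgggcGGACactcggccgggca
CMTR1 (chr6:37433216-37433245, plus strand): tgcccgcagtactGGACccgagcgcgacgg
CMTR1 (chr6:37433241-37433270, plus strand): gacggtgcggctggcGGACccgggctggct
SDHA (chr5:218309-218338, plus strand): gcagtctgcgcagGGACtggcgggactgcg
SDHA (chr5:218318-218347, plus strand): gcagggactggcgGGACtgcgcggcggcaa
CDKN2A (chr9:21974874-21974903, minus strand): cagagggtggggcGGACcgcgtgcgctcgg
AUP1 (chr2:74529805-74529834, minus strand): tgtggtctccgccGGACgcgagttgtgaga
AUP1 (chr2:74529761-74529790, minus strand): gcggggtatgctgGGACcgctagcccttcc
The windows of PHF19, CMTR1 and CDKN2A belong to alternative starts inside the RefSeq span. In CMTR1 the motifs begin 8 and 35 bases after the start and in SDHA 2 and 11 bases after it, in PHF19 and CDKN2A 4 and 33 bases before it. The AUP1 peak covered 4 GGAC, all upstream of the RefSeq start, where the divergent gene HTRA2 begins. BST2, MCM6, KCMF1, PPP6R1 and EIF4G2, with some of the strongest start peaks, had no GGAC in the covered bases. A match is a description of the letters and not a mapped m6A site, and no match says only that these letters are not in this window.

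The peaks of a gene were spread over a wide range of distances. Between the 210 pairs of consecutive peaks, the median gap was 1120 bases (exact 95% interval of the median 772 to 2454), with quartiles of 266 and 9088. The gap was under 100 bases in 27 pairs, under 1000 in 101 (48.1%), under 10000 in 160 (76.2%) and under 100000 in 203 (96.7%). Genes with several peaks and an shNC peak had a median gap of 955 bases, and 50.7% of their 12328 gaps were under 1000. The control-only genes had a median of 911.5. Both values lie within the interval of the 178 genes. Gaps are counted on the genome from the end of a peak to the start of the next. Introns between peaks are included, and those inside a spliced peak are not.

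All peaks of a gene lay within 500 bases in 18 genes, within 1000 bases in 58 (32.6%) and within 5000 bases in 102 (57.3%), and the median distance from first to last base was 2794.5. The 5 tightest genes were POPDC2, AP2A1, AC012414.7, NAT14 and GLRX, whose peaks spanned 167, 180, 207, 238 and 271 bases. The 5 widest were THSD7B with 620135 bases, KDM4C with 356190, CTNNA1 with 180756, RIPOR2 with 174664 and GRIN2A with 174638. CTNNA1, the adherens junction protein alpha-catenin, had a start peak (2.22, -2.88) and an end peak (1.3, -4.47) at that distance. THSD7B, a thrombospondin-repeat gene, had 11.8 with -5.31 and 9.95 with -2.28, and RIPOR2 14.5 with -3.54 and 12.7 with -3.03.

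**Figure D5:**
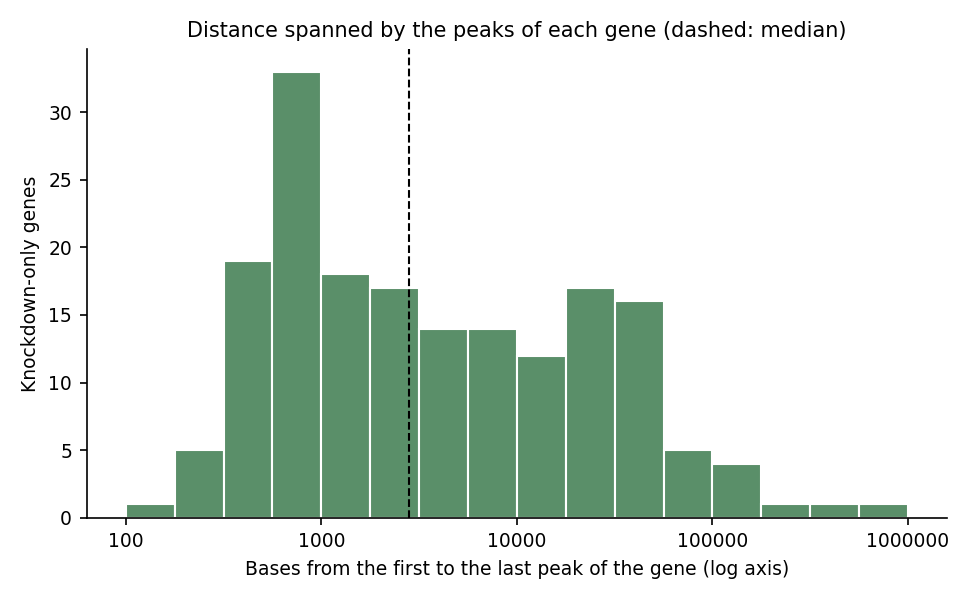
Number of the 178 genes (y axis) by the distance from the first to the last peak base on the genome (x axis, log scale), with the median of 2794.5 bases dashed. Of the 178 genes, 58 span up to 1000 bases, and THSD7B stands at the far right.

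In 6 genes, peaks of the same gene shared bases with each other, so that the count of peaks exceeds the count of sites. UXT-AS1, AP2A1, AC012414.7 and POPDC2 had 1 site once these were merged, and WNT5A and DCAF8L2 had 2. Merging peaks within 100 bases of each other left 157 of the 178 genes with 2 or more sites.

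Few of the peaks lay on a control peak of a neighbouring gene, a low share that the rule on the control list itself favours. A peak of the 178 genes lay on an shNC peak that the authors assigned to another gene in 6 of 388 cases (1.55%, interval 0.570 to 3.34%), 1 in each of 6 genes, against 12.8% of all shALKBH5 peaks and 3.86% of the peaks of single-peak knockdown-only genes. None of the 6 genes had all its peaks on such shNC peaks. The PIDD1 peak (3.94, -11.5) lay on an shNC peak of PANO1 (24.1, -14.1), and the IL4I1 start peak (1.97, -9.97) on one of NUP62 and ATF5 (3.16, -22.4). The PILRA start peak (1.81, -3.08) lay on one of PILRB and its readthrough gene (4.22, -123). In AUP1 it was a peak of HTRA2 (1.76, -3.08), in FAM185A one of AC105052.2 (14.1, -21), and in IPO9-AS1 one of NAV1 (5.43, -13.7). Under 50% reciprocal overlap none of the 6 remained, on the same strand 3 did, and with folds of at least 2 times the lowest of each list 2 did. At these 6 places the control list held a peak under another gene name that shared at least 1 base, and some met only at an edge. The AUP1 peak begins at 74529759 and the HTRA2 control peak ends at 74529763. The PIDD1 peak begins at 799179 and the PANO1 control peak ends at 799190.

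Since the rule removes every gene with an shNC peak, few control peaks can lie near, and the distances describe what it selects. No shNC peak of any gene lay within 200 bases of 380 peaks (97.9%), within 1000 bases of 373 (96.1%), within 5000 bases of 334 (86.1%) or within 50000 bases of 126 (32.5%). Within 1000 bases there was none for 89.1% of the peaks of single-peak knockdown-only genes, which the rule on the control list selects alike, and for 13.2% of all shALKBH5 peaks. The median distance from a peak of the 178 genes to the nearest one was 29663.5 bases. An shNC peak assigned to another gene fell inside the RefSeq span of 13 of the 144 placed genes (9.03%), with 6 in IL4I1, 5 in IPO9-AS1, 4 in PIN4 and 3 each in PHF19 and SSPN.

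Sharing was also counted within the shALKBH5 list itself. The rule acts on the control list, so this share is not ranked against the share on control peaks. Bases were shared with a peak of another gene of that list by 37 peaks (9.54%, interval 6.80 to 12.9%) in 29 genes, against 15.1% over all shALKBH5 peaks. The neighbour was on the opposite strand for 28 of the 37, was itself one of the 178 genes for 8, and had an shNC peak of its own for 15. When only neighbours on the same strand counted, 8 genes shared bases. In 7 genes, UXT-AS1, IPO9-AS1, AC135050.7, CCR6, Z94721.2, ZNF214 and AC105105.1, all peaks were shared in this way.

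Of the 37 shared peaks, 21 had values close to those of the neighbour, within 1 in log10 p and 1.5 times in fold, and 16 did not. The first neighbour listed was taken where there were several. In 5 the log10 p lay more than 10 apart, as in PILRA (1.81, -3.08 against 4.31, -145 for PILRB and its readthrough gene) and FAM185A (17.2, -4.32 against 116, -34 for AC105052.2). At ALPK2, an alpha-kinase gene, 2 of the 3 peaks overlapped peaks of AC105105.1 on the opposite strand, with 8.14 and -3.35 under both names at one place and 18.1 with -4.57 against 13.6 with -3.29 at the other. ACOT11 and FAM151A both read 9.05 with -3.83, and AC004951.1 and SPDYE1 both read 18.1 with -4.57, also on opposite strands. TPM4 read 3.04 with -9 against 3.02 with -8.63 for AC008894.3, and ARPC1B 1.83 with -12.8 against 1.83 with -11.4 for AC004922.1. CHKB-CPT1B, a readthrough gene, read 4.3 with -7.07 against 4.07 with -7.11 for CHKB. The sources used here do not say whether the libraries keep strand, so reads of both strands cannot be told apart at these places.

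When the shALKBH5 list was shortened to the length of the control list, the 76 genes left were, by construction, those whose second peak was among its strongest 22448. That list ended at a log10 p of -3.54, which dropped 2178 peaks in all and 144 of the 388. BST2, MCM6, PHF19, UXT-AS1, TOMM40, CDKN2A, MPEG1, NADK, GSS, TEDC2, CTSD and TAPBPL were among the 76, and 63 of them were protein coding. Of all 178 genes, 42.7% stayed. By function, 6 of the 7 cell cycle genes, 7 of the 11 immune and lysosomal genes, 5 of the 8 RNA and translation genes and 10 of the 17 mitochondrial and metabolic genes stayed. Of the 12 adhesion and cytoskeleton genes 3 stayed, of the 18 transcription and chromatin genes 8, of the 19 signalling genes 7, of the 13 ubiquitin and turnover genes 6 and of the 6 channel and transport genes 4. RPL14, CDKN1C, KCMF1 and SREBF2 left the set, each through its weak second peak.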

How the data were processed

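Per the labels' protocols, poly(A) RNA of lentivirally transduced RPMI-8226 cells gave 1 input and 1 IP library per condition (4 libraries). Build hg38 and the tools HOMER 4.9.1, BWA 0.7.12 and fastp 0.19.11 are named, without their roles, in the submitters' processing notes. The sources used here do not give the peak caller, its settings or the normalization of IP to input. Per the file headers, each deposited row is a peak with position, strand, spliced blocks, gene, fold enrichment (the authors' ratio of IP over input), a p-value in the column named score, and log10 p, which was read as a score with no fixed range. Peak p-values belong to the authors, and no p-value was computed here.

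Peak starts in the tables count from 0 and are given 1-based. Genes were taken by Ensembl identifier. Overlap meant at least 1 shared base between blocks, strand ignored, and distances to shNC peaks used whole spans. RefSeq genes (GRCh38.p14) matched 146 of the 178 genes by symbol. RefSeq gives no strand in the table used, so the peak's strand was taken. Shares have exact (Clopper-Pearson) 95% binomial intervals. Lists of equal length kept the strongest shALKBH5 peaks by log10 p, with ties in file order. Scripts used Python 3.11.15, pandas 2.3.3, numpy 2.4.6, SciPy 1.17.1 and matplotlib 3.10.9, and were tested on simulated peak lists. Alternatives were stricter p or fold, equal list lengths, merged peaks, 3 or more peaks, gene symbols, reciprocal or same-strand overlap, windows, and other distances.

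The members, lists and rules were chosen with earlier results of these data known. The naming rule took genes with 4 or more peaks and 3-peak genes up to 12 by best p, 15 with the strongest second p, 10 with the highest second fold, those on an shNC peak of another gene, the 5 smallest and 5 largest spans, and up to 4 per symbol class by best p. The 15 and the 10 leave out pseudogenes, immunoglobulin genes and unnamed loci. Every other gene was named after its values were seen. A few results are not reported here.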

Additional observations from a re-analysis of the deposited data

How the results depend on the processing

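Of 33 alternatives over 9 results, 18 left the count within 1.5 times its main value (for the gap, within its interval) and 15 did not. A count that stayed can still hold other genes. At a log10 p of -5 or stronger there were 32 control-only genes, of which 5 were among the 43. At 2 times the lowest fold 190 genes met the main rule, of which 146 were among the 178. The 178 genes became 100 at a log10 p of -5 or stronger, 76 with lists of equal length and 25 with 3 or more peaks. The 43 control-only genes became 88 with equal length, since the shortened list misses more of them, and 1 with 3 or more peaks. Peaks on an shNC peak of another gene, and the genes that hold them, fell from 6 to 0 under 50% reciprocal overlap, 3 on the same strand and 2 at 2 times the lowest fold. Genes sharing bases within the shALKBH5 list fell from 29 to 8 on the same strand. The median gap was 4638 bases when only peaks of the 178 genes at a log10 p of -5 or stronger were kept. Of the 178 genes, 38 had 2 or more such peaks. Genes with all peaks close together numbered 18 within 500 bases and 102 within 5000, against 58 within 1000. Start peaks stayed near 58, with 44 within 200 bases and 70 within 1000.

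Each condition had 1 IP and 1 input library, so leaving out a replicate was not run. No paired analysis was possible because no result comes from a test. Depth is unknown, and an absent shNC peak gives no control level of m6A or RNA.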

Other observations

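The set of single-peak knockdown-only genes held peaks stronger than any in the 178 genes, among them PSMB4 at a log10 p of -184 and RPS2 at -103, with folds of 3.15 and 2.14. These genes were named after their values were seen. PSMB4 encodes a proteasome subunit and RPS2 a ribosomal protein, and RPS2 has near-identical copies, so its peak is uncertain.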
